A study of Mus musculus with 9 samples.

Results

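The interferon regulatory factors are a family of transcription factors, and the 8 members described here are Irf1, Irf2, Irf3, Irf4, Irf5, Irf7, Irf8 and Irf9. They were chosen by symbol, as 8 of the 23337 genes counted in each library, and all 8 passed the filter on low counts that left 12553 genes for testing.

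The cells were CD11b+ bone marrow cells, isolated by magnetic positive selection from 9 male C57BL/6 mice aged 3 to 6 weeks, with 3 mice in each of 3 groups and 1 library per mouse. PBS mice received 100 µl of PBS by tail vein on days 1, 3 and 5. EnzR EVs mice received, on the same days, 10 µg (as protein) of extracellular vesicles in 100 µl. These vesicles came from 1 human cell line, CWR-R1 prostate cancer cells made resistant to the androgen receptor inhibitor enzalutamide. EnzR EVs + HDL NPs mice received the same vesicles and, on days 0, 2 and 4, a synthetic nanoparticle that mimics high-density lipoprotein and binds the receptor SR-B1, at 1 µM in the labels and 100 µM in the methods. Marrow was harvested 24 h after the last injection. No group received HDL NPs without vesicles, nor vesicles from other cells, so effects of the nanoparticle alone and of injected vesicles in general cannot be told apart from those of this treatment.

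Every member of the family binds DNA through a related amino-terminal domain that recognises GAAA repeats. Irf3 and Irf7 are activated by phosphorylation downstream of nucleic acid sensors and switch on type I interferon genes, and Irf5 serves a similar role downstream of Toll-like receptors for inflammatory cytokines. Interferon then acts through its receptor to assemble ISGF3, a complex of Irf9 with STAT proteins, which binds interferon-stimulated response elements, and Irf7 and Irf9 are themselves interferon-stimulated genes. Irf1 is induced by interferon gamma and drives antigen presentation genes, with Irf2 as its antagonist. Irf4 and Irf8 are the lineage factors of the family: Irf8 directs progenitors towards monocytes and dendritic cells, and Irf4 acts in B cells, plasma cells, dendritic cells and alternatively activated macrophages.

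In these cells Irf4 stood apart from Irf7 and Irf9. Irf4 was lower in both EV groups than in PBS mice, and lowest after EnzR EVs alone. Irf1, Irf7 and Irf9 were higher after EnzR EVs + HDL NPs than in every PBS mouse, but after EnzR EVs alone their levels spread from below the lowest PBS mouse to above the highest. No member passed an adjusted p of 0.05 in edgeR's quasi-likelihood test. Only the difference in Irf4 passed in DESeq2, in 2 of 4 comparisons.

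Upstream sequences are shown for Irf1 and Irf7, whose levels moved together with Irf9 across libraries, for Irf2, the antagonist of Irf1, and for Irf4, whose levels followed another pattern. Each is the part of the 250 bases before a RefSeq transcription start (GRCm38.p6) that lies in no annotated exon, written 5′ to 3′ on the strand of the gene, and capitals mark letters of the searched motifs. The Irf1 stretch lies at chr11:53769764-53770013 (+), Irf2 at chr8:46739516-46739731 (+), Irf7 at chr7:141266482-141266674 (-) and Irf4 at chr13:30748983-30749225 (+). The first window of Irf9 lies wholly within an exon that GENCODE M21 annotates, and its sequence is not shown.
Irf1: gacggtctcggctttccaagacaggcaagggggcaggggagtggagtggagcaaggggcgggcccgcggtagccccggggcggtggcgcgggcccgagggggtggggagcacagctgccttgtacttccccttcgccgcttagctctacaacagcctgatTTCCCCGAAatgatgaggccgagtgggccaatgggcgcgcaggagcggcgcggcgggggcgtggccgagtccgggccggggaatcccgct
Irf2: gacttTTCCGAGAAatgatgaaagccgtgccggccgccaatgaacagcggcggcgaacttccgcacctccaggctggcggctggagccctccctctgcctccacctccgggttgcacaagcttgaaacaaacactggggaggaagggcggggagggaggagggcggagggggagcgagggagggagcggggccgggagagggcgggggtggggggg
Irf7: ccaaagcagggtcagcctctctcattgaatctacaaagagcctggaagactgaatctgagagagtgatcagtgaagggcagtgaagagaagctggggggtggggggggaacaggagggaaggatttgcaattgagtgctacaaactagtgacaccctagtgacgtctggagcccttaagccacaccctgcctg
Irf4: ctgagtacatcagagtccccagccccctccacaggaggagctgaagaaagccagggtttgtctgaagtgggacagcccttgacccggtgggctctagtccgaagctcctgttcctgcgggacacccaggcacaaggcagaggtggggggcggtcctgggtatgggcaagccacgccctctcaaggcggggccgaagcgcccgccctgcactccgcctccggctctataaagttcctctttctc

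RefSeq gave 11 windows for the 8 members, each reaching from 250 bases before to 50 bases after a start, and 3 motifs were searched in them on both strands. GAAANNGAA, a pair of half-sites of the interferon-stimulated response element, was found in 1 member, Irf2, and in 8.56% of all 32851 promoter windows of that length. TTCNNNGAA, the letters of a gamma-activated site, was found in 3 members, Irf1, Irf2 and Irf8, and in 8.30% of all windows. In Irf1 these letters read TTCCCCGAA and begin at position -90 from the start, which are its capitals above. The capitals of Irf2 are TTCCGAGAA at position -224, and its GAAAATGAA at position -241 lies in an annotated exon before the stretch shown. In Irf8 the letters TTCTCGGAA and TTCAGAGAA begin at positions -171 and -153. GGGANTTTC, the letters of an NF-kB site, was found in 0 members and in 1.11% of all windows. No motif was matched in the windows of 5 members, Irf3, Irf4, Irf5, Irf7 and Irf9, which says only that these letters are not in these windows. The motifs can overlap, and a match is a description of the sequence, not a binding site.

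Libraries differed in depth, from 2575776 counts in EnzR EVs replicate 1 to 18110561 in EnzR EVs replicate 2. Reads of the ribosomal RNA gene Rn45s made up 42.7% of EnzR EVs replicate 1. In PBS replicate 1 they made up 20.3%, in EnzR EVs replicate 3 14.2%, and in the other 6 libraries 0.657% to 2.87%. A floor of 3 counts corresponded to between 0.160 and 1.64 CPM, here the usual share of counts per library with totals scaled by TMM factors. Markers of the selected cells were present in every library: 9 myeloid genes, including Itgam, which encodes CD11b, summed to between 10480 and 17444 CPM. Neutrophil markers summed to between 30512 and 145446 CPM and were lowest in EnzR EVs replicate 1 and PBS replicate 1. EnzR EVs replicate 3 came next in total (8554487), in Rn45s and in this marker list (66594 CPM), so the order of libraries has no clear break after the lowest 2. Irf values are also given without the 2 libraries with the lowest totals, which keeps EnzR EVs replicate 3.

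**Figure D1:**
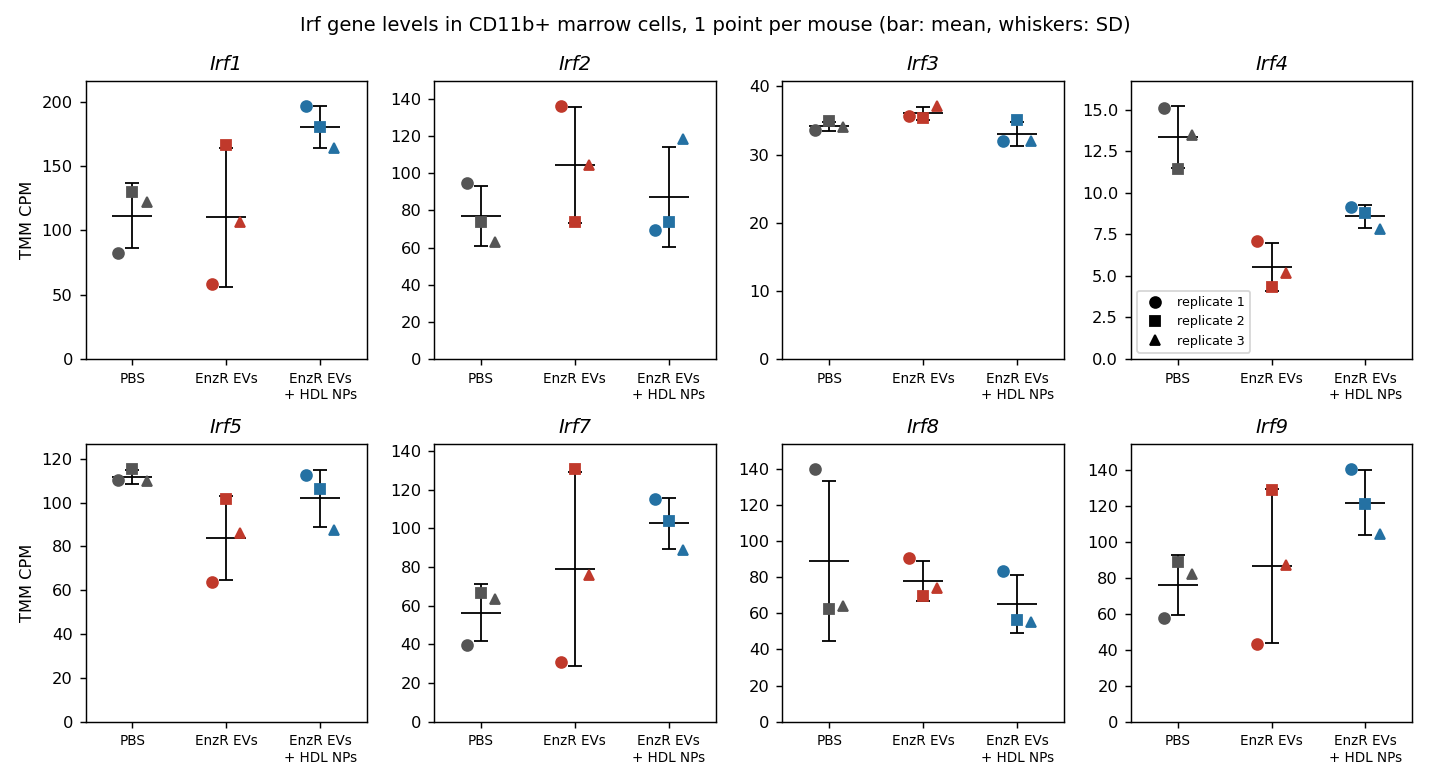
TMM-scaled CPM (y axis, from 0) of each Irf gene by group (x axis), with 1 point per mouse shaped by replicate number, the mean as a bar and the SD as whiskers, 3 mice per group. Irf4 sits at 11.4 to 15.1 CPM in PBS mice, 4.31 to 7.13 after EnzR EVs and 7.82 to 9.17 after EnzR EVs + HDL NPs, while Irf7 and Irf9 spread widely after EnzR EVs.

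Irf4, the lineage factor (chr13:30749226-30766976, + strand of GRCm38), was at 15.1, 11.4 and 13.5 CPM in PBS replicates 1, 2 and 3. It was at 7.13, 4.31 and 5.20 CPM in EnzR EVs replicates 1, 2 and 3. It was at 9.17, 8.75 and 7.82 CPM in EnzR EVs + HDL NPs replicates 1, 2 and 3. The 3 groups did not overlap: each PBS mouse lay above each mouse given EVs, and each EnzR EVs + HDL NPs mouse lay above each EnzR EVs mouse. The means were 13.3 ± 1.85 CPM, 5.54 ± 1.44 CPM and 8.58 ± 0.692 CPM (SD, n = 3 each). Among the 8 members Irf4 alone had 3 groups apart. The same held for 36 of the 12553 genes tested (0.287%), and 9 genes (0.0717%) had the groups in the order of Irf4.

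The reads behind Irf4 were few. Its counts ran from 13 in EnzR EVs replicate 1 to 236 in PBS replicate 3. At 13 counts the exact (Clopper-Pearson) 95% interval of the level was 3.79 to 12.2 CPM, which reaches the range of the PBS mice, and in EnzR EVs replicate 2, with 81 counts, it was 3.42 to 5.35 CPM. Intervals and floors cover counting error only, since the reads carry no molecular identifiers. Irf4 belongs to the genes that the study itself displayed as altered in these same libraries, so its direction is not independent of that choice.

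For EnzR EVs against PBS the log2 fold change of Irf4 was -1.35 with an SE of 0.244 (95% interval -1.89 to -0.81), a level 0.391 times that of PBS mice. By edgeR this had an unadjusted p of 0.000207, rank 4 among 12553 genes, and an adjusted p of 0.650. By DESeq2 the adjusted p was 0.00306. Across the other settings tried the fold change lay between -1.50 and -1.28 with adjusted p-values from 0.00306 to 0.972, and leaving out each library in turn gave -1.49 to -1.16.

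The log2 fold change of Irf4 for EnzR EVs + HDL NPs against PBS was -0.63 with an SE of 0.222 (95% interval -1.12 to -0.14) and an unadjusted p of 0.0170 by edgeR, with an adjusted p of 1.00. Between the EV groups, as EnzR EVs + HDL NPs against EnzR EVs, it was 0.72 with an SE of 0.243 (95% interval 0.19 to 1.26), unadjusted p 0.0131 and adjusted p 0.461 by edgeR. For both EV groups against PBS, 6 mice against 3, it was -0.99 with an SE of 0.194, unadjusted p 0.000388 and adjusted p 0.668 by edgeR, against 0.0162 by DESeq2. The two-sided exact permutation test gave p = 0.0238 for that comparison, where the smallest p the design allows is 0.0119. With 3 mice against 3 the smallest p is 0.10, which Irf4 reached in all 3 such comparisons. Every gene whose groups do not overlap reaches that p, so it only restates the lack of overlap. These comparisons share groups of mice and are not independent of each other.

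Without the 2 libraries with the lowest totals, EnzR EVs replicate 1 and PBS replicate 1, the log2 fold change of Irf4 was -1.40 for EnzR EVs against PBS, with an adjusted p of 0.0846 by edgeR, and 0.86 for EnzR EVs + HDL NPs against EnzR EVs. Between the level of Irf4 and the log2 share of Rn45s, Pearson r was -0.048 across the 9 libraries, a description over libraries that share depth and composition. It was -0.43 without the 2 libraries farthest from the median share, and 0.70 after the group means were taken out.

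In whole populations of CD11b+ cells, fewer cells of a type and less RNA per cell cannot be told apart. All 10 tested B cell markers had a negative fold change for EnzR EVs against PBS, with a median of -0.90, and the 11 counted ones summed to 23.2 to 36.2 CPM in PBS mice, 13.7 to 31.2 CPM after EnzR EVs and 12.5 to 30.9 CPM after EnzR EVs + HDL NPs. The most abundant, Cd79b and Blnk, averaged 6.74 and 3.48 CPM, and Pax5 and Vpreb1 were at 0 counts in 1 library, EnzR EVs replicate 1. Marrow macrophage markers were lower in 10 of 11 tested genes for EnzR EVs against PBS, with a median of -0.78. Vcam1, Cd5l, Mrc1, Hmox1 and Axl were lower at an unadjusted p of 0.05 by edgeR, beside 1.92% of all genes. For both EV groups against PBS, DESeq2 called Axl (adjusted p 0.0145), beside 0.111% of all genes. Without the 2 libraries with the lowest totals, all 11 tested genes were lower in each EV group against PBS. The medians there were -0.90 for EnzR EVs and -0.65 for EnzR EVs + HDL NPs, where 49.2% and 49.7% of all genes were higher. Marrow macrophage markers summed to 1133 to 2048 CPM in PBS mice, 1003 to 1159 CPM after EnzR EVs and 1161 to 1286 CPM after EnzR EVs + HDL NPs, with Slc40a1 and Vcam1 the most abundant at 451 and 236 CPM. Plasma cell markers summed to 165 to 177 CPM, 175 to 216 CPM and 159 to 192 CPM in the same order, of which Xbp1, a gene not limited to plasma cells, made up most. Without Xbp1 the other 7 genes summed to 8.85 to 15.3 CPM, 6.97 to 22.5 CPM and 8.31 to 10.6 CPM, and Tnfrsf17, a receptor of plasma cells, was at 0 counts in 8 of 9 libraries. Conventional dendritic cell markers summed to 266 to 369 CPM, 292 to 388 CPM and 271 to 358 CPM. Cd74 and H2-Ab1 made up most of these sums, at means of 198 and 62.3 CPM over all libraries. Without the 2 libraries with the lowest totals, 8 of 11 tested genes were lower and 3 higher in each EV group against PBS. The medians were -0.41 for EnzR EVs and -0.27 for EnzR EVs + HDL NPs. In that fit edgeR called 1 of them, lower for both EV groups against PBS (calls over all genes are given below). Basophil and mast cell markers had 3 groups apart, at 589 to 605 CPM, 652 to 731 CPM and 514 to 576 CPM, in another order than Irf4. Hdc made up most of these sums, at a mean of 433 CPM over all libraries, and sums without Hdc were not taken. Monocyte markers summed to 3380 to 3901 CPM, 2018 to 3426 CPM and 2875 to 3945 CPM, and erythroid markers to 65.8 to 78.0 CPM, 23.8 to 64.1 CPM and 26.7 to 77.7 CPM. T and NK cell markers summed to 58.8 to 76.0 CPM, 65.7 to 109.6 CPM and 38.8 to 72.1 CPM, and those of platelets to 34.8 to 133.7 CPM, 42.3 to 93.9 CPM and 47.6 to 77.8 CPM. The part of these cell types in the level of Irf4 was not tested.

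Irf8, the other lineage factor (chr8:120736358-120756694, +), was at 139.8, 62.4 and 64.1 CPM in PBS mice, at 90.5, 69.3 and 73.9 CPM after EnzR EVs, and at 83.6, 56.5 and 55.0 CPM after EnzR EVs + HDL NPs. PBS replicate 1 was well above the other PBS mice, and the groups overlapped in every comparison. Its log2 fold change was -0.19 with an SE of 0.314 for EnzR EVs against PBS and -0.44 with an SE of 0.311 for EnzR EVs + HDL NPs against PBS. Without PBS replicate 1 these values were 0.29 and 0.039, so the sign rests on that library. Plasmacytoid dendritic cell markers, with Irf8 itself left out, summed to 152 CPM in PBS replicate 1 and to 125 to 167 CPM in the other libraries. Of the 11 other genes, 2 were highest in PBS replicate 1: Siglech, at 2.81 CPM there and 0.805 and 0.972 CPM in PBS replicates 2 and 3, and Spib, at 10.02 CPM and 2.41 and 3.09 CPM. The part of these cells in the level of Irf8 was not tested.

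Irf7, the interferon-induced amplifier of type I interferon (chr7:141262706-141266481, -), was at 39.6, 66.6 and 63.2 CPM in PBS mice. It was at 30.7, 131 and 75.7 CPM in EnzR EVs replicates 1, 2 and 3. It was at 115, 104 and 88.8 CPM after EnzR EVs + HDL NPs. The EnzR EVs mice held both the lowest and the highest value of all 9, while each EnzR EVs + HDL NPs mouse lay above each PBS mouse. Means were 56.5 ± 14.7 CPM, 79.0 ± 50.1 CPM and 102 ± 13.2 CPM (SD, n = 3 each).

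The log2 fold change of Irf7 was 0.51 with an SE of 0.400 for EnzR EVs against PBS (95% interval -0.38 to 1.40), with an unadjusted p of 0.230 by edgeR. With HDL NPs, against PBS, it was 0.85 with an SE of 0.400 (95% interval -0.03 to 1.74), with an unadjusted p of 0.0569 and an adjusted p of 1.00 by edgeR. Leaving out EnzR EVs replicate 2 moved the first value to -0.021. With the 2 libraries of lowest total left out it was 0.68 with an adjusted p of 0.485, and the difference between the EV groups went from 0.34 to -0.021.

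Irf9, the DNA-binding part of ISGF3 (chr14:55603571-55610030, +), was at 57.5, 89.0 and 82.2 CPM in PBS mice. It was at 43.3, 129 and 87.3 CPM in EnzR EVs replicates 1, 2 and 3. It was at 141, 121 and 104 CPM after EnzR EVs + HDL NPs. The order of the mice was close to that of Irf7: EnzR EVs replicate 1 was the lowest of all 9, EnzR EVs replicate 2 was the highest of its group, and the EnzR EVs + HDL NPs mice lay above every PBS mouse. The log2 fold change was 0.20 with an SE of 0.326 for EnzR EVs against PBS (95% interval -0.52 to 0.92) and 0.68 with an SE of 0.326 for EnzR EVs + HDL NPs against PBS (95% interval -0.04 to 1.40), the latter with an unadjusted p of 0.0630 by edgeR. Without EnzR EVs replicate 2 the first value was -0.17, and without the 2 libraries with the lowest totals the values were 0.35 and 0.51.

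Irf1, the factor induced by interferon gamma (chr11:53770014-53778374, +), was at 82.5, 129.9 and 122 CPM in PBS mice, at 58.1, 166 and 107 CPM after EnzR EVs, and at 196, 181 and 164 CPM after EnzR EVs + HDL NPs. As for Irf7 and Irf9, EnzR EVs replicate 1 was the lowest library and the EnzR EVs + HDL NPs mice lay above every PBS mouse. The log2 fold change was 0.00 with an SE of 0.313 for EnzR EVs against PBS (95% interval -0.69 to 0.69), and its sign changed with the settings. It was 0.69 with an SE of 0.315 for EnzR EVs + HDL NPs against PBS, with an unadjusted p of 0.0519 by edgeR and an adjusted p of 1.00. They were 0.12 and 0.52 without the 2 libraries with the lowest totals.

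Irf2, the antagonist of Irf1 (chr8:46739732-46847458, +), did not share that pattern. It was at 94.8, 73.6 and 62.9 CPM in PBS mice, at 136, 73.5 and 104 CPM after EnzR EVs, and at 69.5, 73.6 and 118 CPM after EnzR EVs + HDL NPs, and the groups overlapped in every comparison. Its log2 fold change was 0.43 with an SE of 0.279 for EnzR EVs against PBS and 0.18 with an SE of 0.276 for EnzR EVs + HDL NPs against PBS, and the latter was -0.11 without EnzR EVs + HDL NPs replicate 3. With the 2 libraries of lowest total left out these were 0.39 and 0.35. Leaving out 1 library at a time put the value for EnzR EVs against PBS at 0.21 to 0.66.

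Irf3, which is activated by phosphorylation (chr7:44997648-45002848, +), had the narrowest spread of the family. It was at 33.6, 34.9 and 34.1 CPM in PBS mice, at 35.6, 35.4 and 37.1 CPM after EnzR EVs, and at 31.9, 35.1 and 32.0 CPM after EnzR EVs + HDL NPs. The EnzR EVs mice lay above the other mice, but by little: the log2 fold change was 0.077 for EnzR EVs against PBS (95% interval -0.24 to 0.40) and -0.13 for EnzR EVs + HDL NPs against EnzR EVs (95% interval -0.45 to 0.19). With library size in place of TMM as the scaling these became -0.094 and 0.098, and with the 2 libraries of lowest total left out they were 0.080 and -0.14.

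Irf5, which acts downstream of Toll-like receptors (chr6:29526625-29541871, +), was at 110.1, 115 and 109.6 CPM in PBS mice, at 63.6, 102 and 86.1 CPM after EnzR EVs, and at 112, 106 and 87.4 CPM after EnzR EVs + HDL NPs. Each EnzR EVs mouse lay below each PBS mouse, while EnzR EVs + HDL NPs mice overlapped both groups. For EnzR EVs against PBS its log2 fold change was -0.40 with an SE of 0.189 (95% interval -0.82 to 0.02), with an unadjusted p of 0.0573 and an adjusted p of 0.928 by edgeR. It was -0.25 without EnzR EVs replicate 1, -0.54 without EnzR EVs replicate 2, and -0.25 with both libraries of lowest total left out. The level of Irf5 had r = -0.70 with the log2 share of Rn45s across libraries, -0.75 within groups and -0.79 without the 2 libraries farthest from the median share, and the part of library quality in it was not tested. Some 14.1% of the exon bases of Irf5 are shared with Tnpo3, a nuclear import receptor gene on the opposite strand, and whether counting used strand is not given in the sources used here. The same applies to 2.56% of Irf3 (with Bcl2l12) and 1.19% of Irf7 (with Phrf1), and 2.28% of Irf9 lies in exons of Rnf31 on the same strand.

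**Figure D2:**
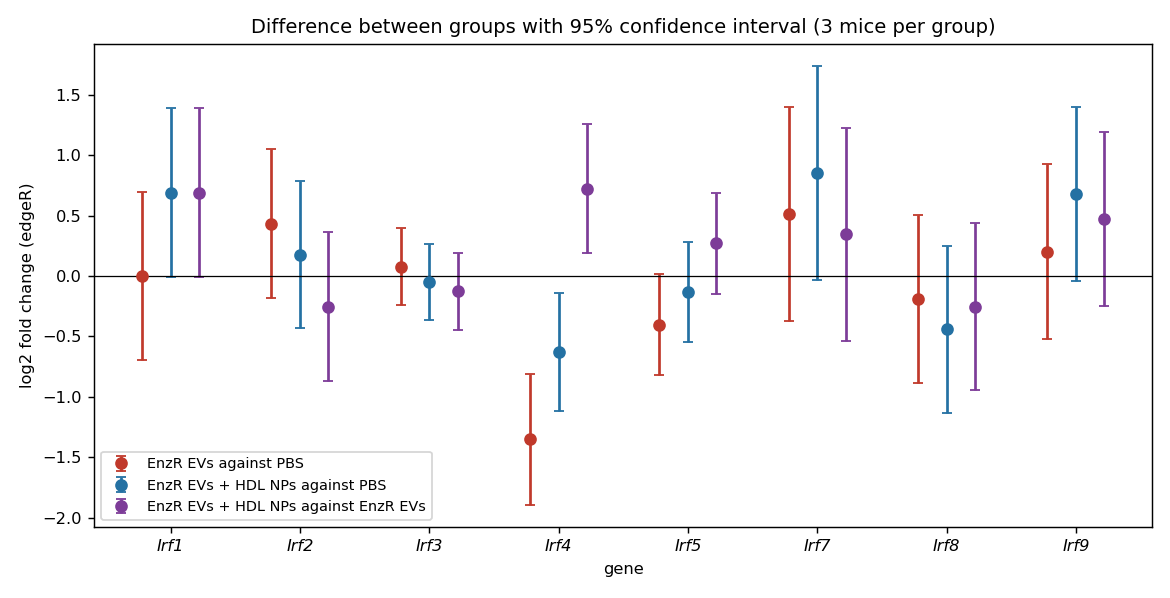
The log2 fold change from edgeR (y axis) of each Irf gene (x axis) in 3 comparisons, with points for estimates and whiskers for 95% confidence intervals, 3 mice per group. The intervals of Irf4 lie wholly below 0 against PBS and above 0 for EnzR EVs + HDL NPs against EnzR EVs, without adjustment for the number of genes; those of the other 7 genes include 0.

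In the main edgeR fit and in DESeq2, the calls in the family came from 1 gene. For EnzR EVs against PBS, 0 of 8 members passed edgeR's adjusted p (0% of all genes tested), 1 passed an unadjusted p of 0.05 (3.47% of all genes) and 1 passed DESeq2 (0.0555%). For EnzR EVs + HDL NPs against PBS the counts were 0 by edgeR (0%), 1 unadjusted (2.13%) and 0 by DESeq2 (0.0608%). Between the EV groups they were 0 by edgeR (0%), 1 unadjusted (10.6%) and 0 by DESeq2 (0.00532%). For both EV groups against PBS they were 0 by edgeR (0%), 1 unadjusted (2.17%) and 1 by DESeq2 (0.111%). The gene was Irf4 each time. The test of any difference between the 3 groups by edgeR called 0 members (0% of all genes), with Irf4 at F = 15.6, unadjusted p 0.000709, rank 5 and adjusted p 0.811.

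Groups did not overlap for 3 of 8 members for EnzR EVs against PBS (Irf3 higher, Irf4 and Irf5 lower), beside 7.96% of all genes tested. They did not overlap for 4 of 8 for EnzR EVs + HDL NPs against PBS (Irf1, Irf7 and Irf9 higher, Irf4 lower), beside 13.2%. Between the EV groups they did not overlap for 2 of 8 (Irf4 higher, Irf3 lower), beside 17.6%, and for both EV groups against PBS for 1 of 8 (Irf4), beside 1.63%. Without the 2 libraries with the lowest totals the counts were 5, 4, 2 and 2 of 8, beside 43.2%, 20.6%, 24.1% and 8.42% of genes, an alternative chosen after seeing the data. The members' median log2 fold changes were 0.039, 0.064, 0.31 and 0.16 in the order of these comparisons, against -0.027, -0.007, 0.033 and -0.010 over all genes.

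The contrast of Irf7 and Irf9 with Irf4 was followed within each mouse, as a ratio of reads that does not depend on scaling between libraries. There were 2.62, 5.82 and 4.69 reads of Irf7 per read of Irf4 in PBS mice, 4.31, 30.3 and 14.6 after EnzR EVs, and 12.6, 11.8 and 11.4 after EnzR EVs + HDL NPs. For Irf9 there were 3.80, 7.78 and 6.09 reads per read of Irf4 in PBS mice, 6.08, 30.0 and 16.8 after EnzR EVs, and 15.4, 13.8 and 13.4 after EnzR EVs + HDL NPs. Both ratios were higher in each EnzR EVs + HDL NPs mouse than in each PBS mouse, whereas EnzR EVs replicate 1 lay within the PBS range. Between same-numbered PBS and EnzR EVs mice, both ratios were higher in the EnzR EVs mouse in 3 of 3 pairs, though no source states that the numbers pair mice. Log2 ratios were taken from log2 CPM with a prior count of 2, so scaling between libraries enters them through that prior. As such log2 ratios, Irf7 to Irf4 stood at 2.04 ± 0.594, 3.59 ± 1.41 and 3.55 ± 0.0742 in PBS, EnzR EVs and EnzR EVs + HDL NPs mice, and Irf9 to Irf4 at 2.48 ± 0.522, 3.82 ± 1.15 and 3.80 ± 0.106 (SD, n = 3 each). The similar means of the 2 EV groups rest on single mice: the log2 ratio of Irf7 to Irf4 for EnzR EVs + HDL NPs against EnzR EVs differed by -0.80 without EnzR EVs replicate 1 and by 0.60 without EnzR EVs replicate 2. For Irf9 to Irf4 these differences were -0.65 and 0.50. For EnzR EVs against PBS, leaving out 1 library at a time put the change of the log2 ratio at 0.91 to 2.31 for Irf7 to Irf4. It was 0.82 to 1.96 for Irf9 to Irf4. These ratios are a description, since the contrast was proposed with results of these data known.

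**Figure D3:**
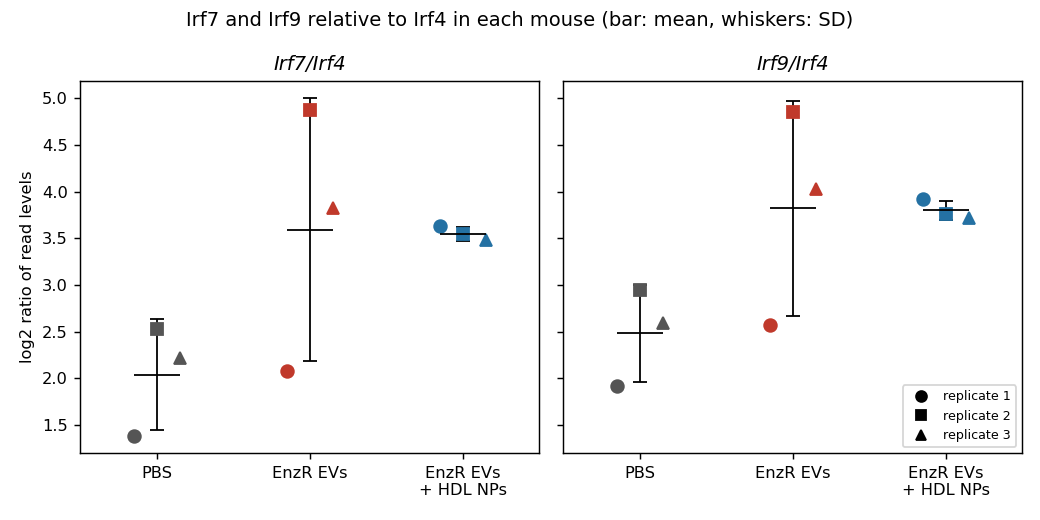
The log2 ratio of Irf7 to Irf4 and of Irf9 to Irf4 (y axis) by group (x axis), with 1 point per mouse, the mean as a bar and the SD as whiskers, 3 mice per group. All EnzR EVs + HDL NPs mice lie above all PBS mice in both panels, and EnzR EVs mice spread over the widest range.

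Across the 9 libraries the levels of Irf7 and Irf9 followed each other (Pearson r = 0.988, Spearman rho = 0.967 for log2 CPM, and r = 0.996 after group means were taken out). Irf1 followed both, with r = 0.949 for Irf7 and 0.980 for Irf9. For Irf4, r was -0.42 with Irf7 and -0.29 with Irf9, and without the 2 libraries farthest from the median of Irf4 these were 0.085 and 0.18. After group means were taken out, Irf4 was inverse to all 3, with r = -0.88 for Irf1, -0.87 for Irf7 and -0.85 for Irf9. Within groups, r with the log2 share of Rn45s was 0.70 for Irf4 and -0.91, -0.88 and -0.88 for Irf1, Irf7 and Irf9. The part of library quality in this inverse relation was not tested. The libraries share depth and composition, so these are descriptions of 9 points and carry no p.

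The genes most like each in pattern over the 9 libraries were taken as the 5 with the highest Pearson r among all genes tested. For Irf7 they were Ifit3 (0.988), Rtp4 (0.988), Irf9 (0.988), Dtx3l (0.984) and Zbp1 (0.981). For Irf9 they included Ifih1 (0.989), Parp9 (0.989), Irf7 (0.988) and Lair1 (0.987). Most of these, such as the antiviral gene Ifit3 and the RNA sensor Ifih1, are known interferon-stimulated genes. For Irf4 they were Fbxo32 (0.944), Klhl11 (0.921), Tmppe (0.907), Cplx2 (0.900) and Tspan33 (0.884), and no gene of the lists of Irf7 and Irf9 was among them. Cplx2 and Tspan33 were near the floor, at means of 0.708 and 1.59 CPM and as few as 1 and 3 counts.

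The share of Rn45s moved with Irf1, Irf7 and Irf9, and with Irf5 and Irf2. Across the 9 libraries r with the log2 share of Rn45s was -0.91 for Irf1, -0.82 for Irf7 and -0.87 for Irf9, and within groups it was -0.91, -0.88 and -0.88. For Irf2 it was 0.83, for Irf8 0.64 and for Irf5 -0.70. Without the 2 libraries farthest from the median share, r was -0.72 for Irf1, -0.40 for Irf7, -0.55 for Irf9, 0.75 for Irf2 and 0.11 for Irf8, so the relation of Irf8 and part of the others rest on those libraries, while that of Irf5 was -0.79. All EnzR EVs + HDL NPs libraries had a low share of Rn45s, at most 2.87%, and the part of library quality in the levels of Irf1, Irf7 and Irf9 was not tested.

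**Figure D4:**
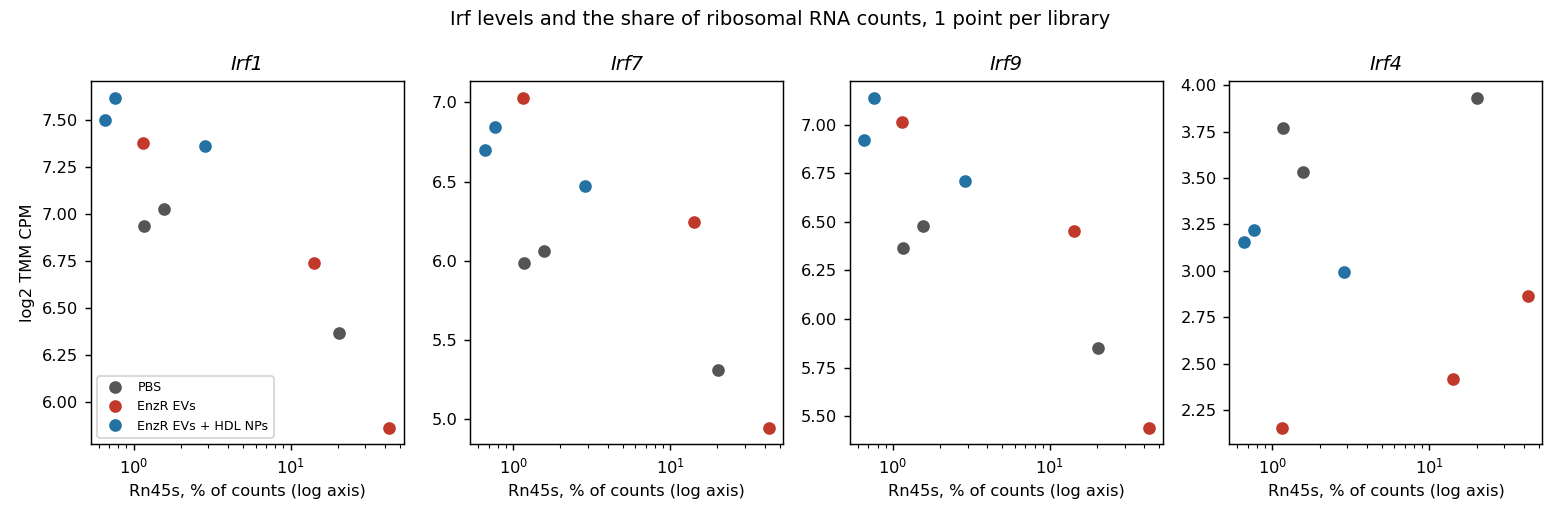
The log2 TMM-scaled CPM (y axis) of Irf1, Irf7, Irf9 and Irf4 against the percentage of counts on Rn45s (x axis, log scale), with 1 point per library coloured by group. Irf1, Irf7 and Irf9 are lowest in the libraries with 20.3% and 42.7% Rn45s, and Irf4 has its lowest and highest values at 1.15% and 20.3%.

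Per length of transcript the members differed over a wide range. In PBS mice the mean level per kb of the longest coding transcript in GENCODE M21 was 52.2 ± 11.9 CPM for Irf1 and 49.8 ± 1.40 CPM for Irf5, 2 neighbours within their spread (SD, n = 3). Irf8 at 31.2 ± 15.5, Irf2 at 30.9 ± 6.50, Irf9 at 25.8 ± 5.60 and Irf7 at 25.2 ± 6.58 CPM per kb came next and did not differ beyond their spread. Irf3 was at 16.8 ± 0.323 CPM per kb, and Irf4 was the lowest at 2.80 ± 0.388, below every other member in every mouse. After EnzR EVs + HDL NPs Irf1 was at 84.4 ± 7.49, Irf7 at 45.8 ± 5.89 and Irf9 at 41.3 ± 6.14 CPM per kb, and Irf4 at 1.80 remained the lowest. The isoforms in use are not known from gene counts, so these levels depend on the transcript chosen.

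Genes around the family were taken from lists written from general knowledge, and in the main fit edgeR called 0 genes in any of them. Counts at an unadjusted p of 0.05 and by DESeq2 are given only for each EV group against PBS. They are given for the lists in which there were any. Of 16 interferon genes, 14 were counted, 2 were tested and 12 had at most 1 count in any library, Ifnb1 and 10 genes of the interferon alpha group among them. Ifng was at 0.518 ± 0.294 CPM in PBS mice, 0.718 ± 0.333 CPM after EnzR EVs and 0.619 ± 0.347 CPM after EnzR EVs + HDL NPs (SD, n = 3 each), levels near the floor, and Ifnk, the other tested gene, had a log2 fold change of -0.55 for both EV groups against PBS.

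Targets of ISGF3 leaned one way. Of 29 tested genes, 27 had a positive fold change for EnzR EVs against PBS, with a median of 0.73, and 29 for EnzR EVs + HDL NPs against PBS, with a median of 0.96, where 46.5% and 48.9% of all genes tested were higher. At an unadjusted p of 0.05 there were 12 and 19 higher and 0 lower, beside 1.55% and 1.02% of all genes that were higher at that p. Groups did not overlap, with the treated mice higher, for 5 and 27 of the 29, beside 3.43% and 6.96% of all genes. DESeq2 called 2 of them for EnzR EVs against PBS (0.0555% of all genes) and 1 for EnzR EVs + HDL NPs against PBS (0.0608%). Without the 2 libraries with the lowest totals, 28 and 29 were higher, 17 and 26 at an unadjusted p of 0.05, and 20 and 29 did not overlap, beside 4.18% and 1.51% of all genes higher at that p and 21.5% and 10.6% not overlapping in that direction. In that fit edgeR's adjusted p called 3 of the list as higher for EnzR EVs against PBS and 3 for both EV groups against PBS. Over all 12602 genes tested there, it called 5 in each of these comparisons. These list counts were added after seeing the data. Ifit3 and Rtp4 of this list followed Irf7, which had r = -0.82 with the log2 share of Rn45s. That share was at most 2.87% in the EnzR EVs + HDL NPs libraries. The part of library quality in this list and in that of Irf1 targets was not tested.

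Within this list Ifit1, which binds viral RNA, had the largest fold change for both EV groups against PBS. It was at 17.7 ± 5.70 CPM in PBS mice, 72.8 ± 19.1 CPM after EnzR EVs and 38.7 ± 6.74 CPM after EnzR EVs + HDL NPs (SD, n = 3 each). Its log2 fold change for EnzR EVs against PBS was 2.04 with an SE of 0.273, with an adjusted p of 0.200 by edgeR and 2.2e-08 by DESeq2, and for EnzR EVs + HDL NPs against EnzR EVs it was -0.90 (unadjusted p 0.00607 and adjusted p 0.461 by edgeR). In the latter comparison Irf7 and Irf9 had values of 0.34 and 0.47. Leaving out 1 library at a time put these at -0.019 to 0.88 and at 0.17 to 0.85. Oas1g had a value of 1.85 with an SE of 0.474 for EnzR EVs against PBS. At the other end, Samd9l and Mx2 had log2 fold changes of 0.32 and 0.30 for both EV groups against PBS.

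Targets of Irf1 and antigen presentation genes were higher in 16 of 20 tested genes for EnzR EVs against PBS and for EnzR EVs + HDL NPs against PBS, with medians of 0.51 and 0.71. At an unadjusted p of 0.05 there were 5 and 10 higher and 0 lower, beside 1.55% and 1.02% of all genes higher, and groups did not overlap with the treated mice higher for 1 and 11, beside 3.43% and 6.96%. The counts at that p were 10 and 11 without the 2 libraries with the lowest totals, where 1 and 0 genes were lower at that p and 4.18% and 1.51% of all genes were higher. The guanylate-binding protein genes Gbp2 and Gbp4 led, with log2 fold changes of 2.04 (SE 0.524) and 2.07 (SE 0.407) for EnzR EVs + HDL NPs against PBS, where DESeq2 called 2 genes of the list, Gbp4 and Nlrc5 (adjusted p 0.0354 each), beside 0.0608% of all genes. DESeq2 called 0 of the list for EnzR EVs against PBS. Ciita, the activator of MHC class II genes, and Il15 were at the low end for both EV groups against PBS, at 0.056 and -0.35.

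Of 11 receptor, kinase and STAT genes, 7 were higher for EnzR EVs against PBS and 6 for EnzR EVs + HDL NPs against PBS, with medians of 0.083 and 0.016, and 0 and 1 were higher at an unadjusted p of 0.05, beside 1.55% and 1.02% of all genes. Stat2, a partner of Irf9, had a log2 fold change of 0.72 (SE 0.215) for EnzR EVs + HDL NPs against PBS, with groups that did not overlap. Ifnar2, a chain of the type I interferon receptor, and Tyk2, its kinase, were at 0.016 and -0.057 in that comparison. Among 23 sensors, adaptors and kinases upstream of Irf3, Irf5 and Irf7, 9 and 15 were higher in the 2 comparisons, with medians of -0.093 and 0.10, and 2 in each were higher at an unadjusted p of 0.05, beside the same shares of all genes. Zbp1 and Ifih1 led for both EV groups against PBS, at 1.17 and 0.61, and the adaptor Mavs and the transporter Slc15a4 were lowest, at -0.21 and -0.34.

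Of 10 feedback inhibitors of interferon signalling, 6 were higher in each of these comparisons, with medians of 0.34 and 0.093, and 1 and 2 were higher at an unadjusted p of 0.05, beside 1.55% and 1.02% of all genes. Usp18 and Trim21 led for both EV groups against PBS, at 0.91 and 0.50, and Pias1 was near the low end, at -0.038. Of 14 partners of Irf4 and Irf8, 3 and 6 were higher, with medians of -0.060 and -0.20, with 2 genes lower at an unadjusted p of 0.05 in the latter, beside 1.12% of all genes. For both EV groups against PBS, Batf2 and Id2 were highest at 0.41 and 0.13, and Batf3 and Spib lowest at -0.79 and -1.05. Batf2 was near the floor, at a mean of 0.551 CPM. Its value was -0.43 for EnzR EVs against PBS and 1.25 for EnzR EVs + HDL NPs against PBS. Of 12 genes of the monocyte and dendritic programme of Irf8, 3 and 5 were higher, with medians of -0.29 and -0.092, and 2 and 0 were lower at an unadjusted p of 0.05, beside 1.92% and 1.12% of all genes. Itgax and Ctss were highest for both EV groups against PBS, at 0.38 and 0.099, and Klf4 and Cx3cr1 lowest, both at -0.43.

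**Figure D5:**
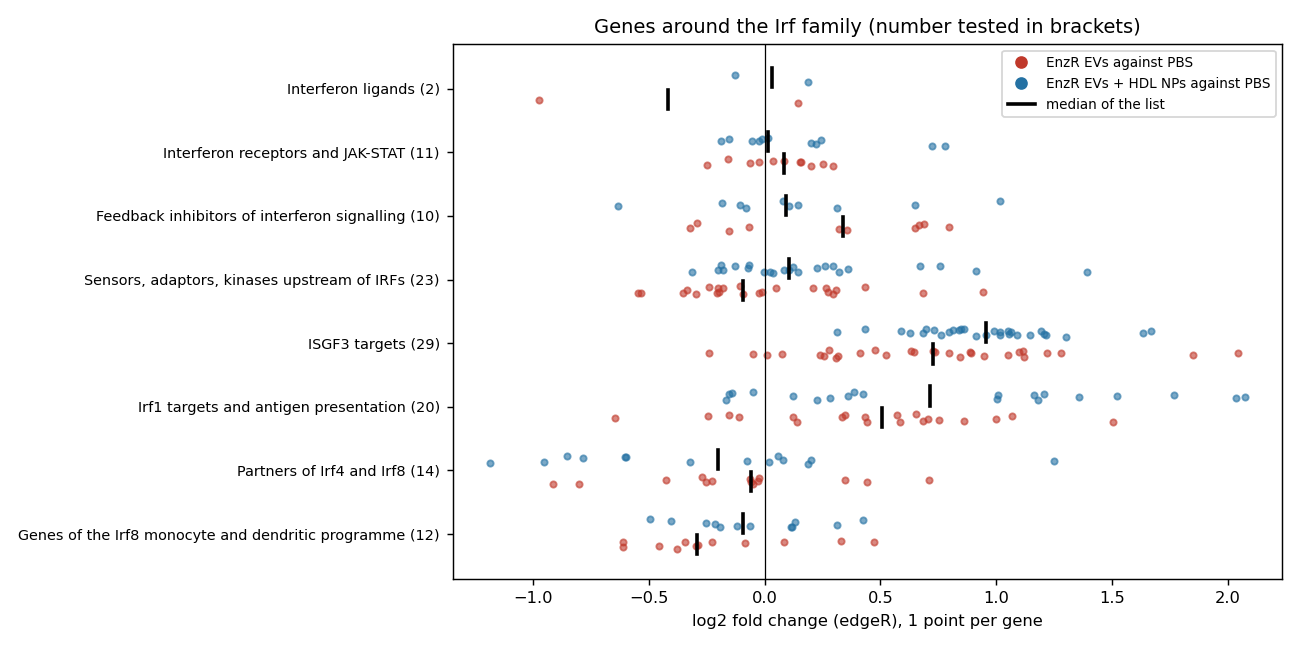
The log2 fold change from edgeR (x axis) of each tested gene in 8 lists of genes around the Irf family (y axis), with red points for EnzR EVs against PBS, blue points for EnzR EVs + HDL NPs against PBS and black bars for the median of a list, which rests on 2 to 29 genes. ISGF3 targets lie mostly above 0, with medians of 0.73 and 0.96, and partners of Irf4 and Irf8 have medians of -0.060 and -0.20.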

How the data were processed

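CD11b+ bone marrow cells of 9 mice were profiled by stranded total RNA-seq after rRNA depletion, with 200 ng of RNA as input and single 75 bp reads. The deposited values are raw counts per gene and library. The authors trimmed adapters (cutadapt 1.13, in the submitters' processing notes), discarded rRNA and low-quality reads, aligned with STAR on mm10, and counted reads per UCSC gene (HTSeq 0.6.1p1). Replicates are mice.

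Counts were fitted with edgeR 4.0.16 in R 4.3.3: TMM scaling, the default filter on low counts, and a robust quasi-likelihood fit to all 9 libraries with 1 coefficient per group. P-values were adjusted over 12553 genes by Benjamini-Hochberg, with a threshold of 0.05. Log2 CPM has a prior count of 2. DESeq2 1.42.0 and limma 3.58.1 (voom) were alternatives, as were other scalings, filters and sets of libraries. Fits were tested on simulated data. No library was a duplicate: the closest pair within a group differed by more than sampling noise (chi-square per gene, 4.48). Genes around the members are named as the 2 highest and 2 lowest of a list for both EV groups against PBS, with the 5 genes most like Irf4, Irf7 and Irf9. In the marker lists used, the most abundant genes, those at 0 counts and marrow macrophage genes that passed a threshold are named. The members and lists were chosen with earlier results of these data known. Positions are from GENCODE M21 and upstream sequences from RefSeq, both on GRCm38. Some genes that these rules name are not reported here. Replicate numbers carry no stated pairing. Deviations from group means of same-numbered mice correlated over 0.1 in all 3 pairs of PBS and EnzR EVs mice (0.131 to 0.492), though PBS replicate 3 was closer to EnzR EVs replicate 2 (0.429), and in 6 of 9 pairs over all groups (lowest, -0.175).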

Additional observations from a re-analysis of the deposited data

How the results depend on the processing

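Irf4 kept its direction in all 4 comparisons under every alternative. DESeq2 called 1 member for EnzR EVs against PBS, 1 for both EV groups against PBS and 1 for any difference between groups, and 8, 7, 1 and 14 genes in the 4 comparisons. Voom with sample quality weights called 3 members (Irf2, Irf4 and Irf5) for EnzR EVs against PBS, 1 (Irf1) for EnzR EVs + HDL NPs against EnzR EVs, 1 (Irf4) for both EV groups against PBS and 3 for any difference. It called 1972, 8, 639 and 88 of 12553 genes in the 4 comparisons. The cause of the larger numbers with quality weights was not tested. For any difference, the number over all genes is not given for DESeq2 or voom, so those member counts have no share beside them. edgeR called 1 gene for EnzR EVs against PBS with no filter, 1 for EnzR EVs + HDL NPs against EnzR EVs with only the libraries compared, and 5, 1 and 5 genes (EnzR EVs against PBS, between EV groups, both EV groups against PBS) without the 2 libraries with the lowest totals. Leaving out 1 library gave 0 to 2, 0, 0 to 1 and 0 to 1 genes, and 0 members.

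With a replicate block (the check of pairing is given with the processing) edgeR called 1 gene for EnzR EVs against PBS, 2 for both EV groups against PBS and 0 members, and Irf1 was at -0.055 for EnzR EVs against PBS.

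Signs changed for Irf1, Irf2, Irf3, Irf7, Irf8 and, on leaving out 1 library, Irf9. For EnzR EVs against PBS, Irf1 was -0.0092 with voom, -0.19 with quality weights, -0.12 with library size only, -0.020 with no filter and -0.011 with at least 10 counts in every library. Irf8 was 0.19 and 0.056 with quality weights (EnzR EVs, both EV groups, against PBS), 0.19, 0.041 and 0.11 without the 2 libraries with the lowest totals (EnzR EVs, EnzR EVs + HDL NPs, both EV groups, against PBS), and 0.016 between EV groups with library size only. With library size only Irf3 was -0.094, 0.0034, 0.098 and -0.045 in the 4 comparisons and Irf2 was 0.031 between EV groups. Irf7 between EV groups was -0.021 without the 2 libraries.

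Leaving out 1 library at a time, for EnzR EVs against PBS Irf1 ran from -0.39 (without EnzR EVs replicate 2) to 0.29, Irf7 from -0.021 to 0.87, Irf9 from -0.17 to 0.51 and Irf8 from -0.38 to 0.29 (without PBS replicate 1). For EnzR EVs + HDL NPs against PBS Irf8 ran from -0.66 to 0.039 and Irf2 from -0.11 to 0.35. Between EV groups Irf7 ran from -0.019 (without EnzR EVs replicate 1) to 0.88, and Irf9 from 0.17 to 0.85. For both EV groups against PBS Irf8 ran from -0.51 to 0.16 and Irf3 from -0.0030 to 0.040. The fit with only the libraries compared gives no value for both EV groups against PBS.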
